A study of Mus musculus with 12 samples.

Results

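The clustered protocadherins are cell-surface cadherins encoded by 3 neighbouring gene clusters, alpha, beta and gamma, on mouse chromosome 18. They were taken by symbol: every row of the FPKM table (read fragments on a gene, corrected for transcript length and library depth) whose symbol begins with Pcdha, Pcdhb or Pcdhg and goes on with a member number or an a, b or c and a number. This gave 56 of 32245 genes, of which 13 are alpha, 22 beta and 21 gamma. The count table holds 57 gene IDs for them, because 2 IDs carry the symbol Pcdha11 in the annotation used. One of these, ENSMUSG00000007440, lies where RefSeq places Pcdha10 and is called by its ID here.

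Each alpha and gamma gene has its own promoter and a large variable exon, which is spliced to constant exons shared by its whole cluster. Each beta gene encodes a whole protein in its variable exon. Neurons choose among the promoters of the alternate members more or less at random, through the insulator protein CTCF, cohesin and DNA methylation. The C-type genes at the ends of the alpha (Pcdhac1, Pcdhac2) and gamma (Pcdhgc3, Pcdhgc4, Pcdhgc5) clusters are regulated in another way, and the proteins give cells a surface identity through binding of like to like.

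RNA was sequenced from mouse embryonic stem cells, recorded as E14Tg2a.IV, in 6 groups of 2 libraries. WT cells, cells lacking Smad2 and Smad3 (S2/3DKO) and cells lacking Smad4 (S4KO) were each taken as undifferentiated stem cells (day 0) and as embryoid bodies grown without LIF for 4 days (day 4). Nodal, activin and TGF-beta receptors signal to the nucleus through Smad2 and Smad3, which work with Smad4, a partner also used in BMP signalling. The labels do not say how many clones stand behind each knockout or whether replicates are separate cultures, so p-values measure the spread between these libraries, which may be technical.

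The 12 libraries held 31566376 to 55806858 counts, of which 2415 to 6367 fell on clustered protocadherins. The lowest total was that of S4KO day 4 replicate 2. Smad2 transcripts stood at 38.0 to 52.4 and Smad3 transcripts at 13.7 to 34.0 CPM (counts scaled to a common library total) in the S2/3DKO libraries and Smad4 transcripts at 80.1 to 147 CPM in the S4KO libraries, so total transcript level did not check these labels. The S4KO libraries held 172 to 207 CPM of Hprt, which stood at 0.197 to 0.726 CPM in the others. Eif2s3y, a Y-linked gene, was at 0 in 3 of 4 S2/3DKO libraries and at 1.51 CPM in S2/3DKO day 4 replicate 1. It stood at 30.6 to 86.7 CPM in those of WT and S4KO. Xist, an X-linked gene, stood at 33.3 to 125 CPM in the S2/3DKO libraries and at 0.702 to 9.76 CPM in the others. Hprt, Eif2s3y and Xist thus differed between genotypes recorded as the same line, so an equal line history is not assumed here. Genotype and line history cannot be told apart in the comparisons between genotypes. Ribosomal protein genes took 10.3% and 14.1% of counts in the WT day 0 libraries and 4.84% to 7.44% in the others, and mitochondrial transcripts took 6.74% in S2/3DKO day 0 replicate 2. Pluripotency markers were present at day 0, at a summed 4021 CPM or more over 10 genes in each library, and markers of neurons were dominated by Stmn2 (465 CPM in WT day 0).

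The alpha cluster spans positions 36930184 to 37187661 of chromosome 18, the beta cluster 37264938 to 37524479 and the gamma cluster 37661793 to 37841873, all on the plus strand (mm10, GENCODE M21). All alpha gene models share 2860 exonic bases and all gamma models 2116. In the median alpha member 53.4% of exon bases, and in the median gamma member 44.6%, also belong to other members, against 0% in the median beta member. Reads from the constant exons fit every member of a cluster, and the counting rule was not found in the labels, so the split between alpha members and between gamma members is uncertain. Overlapping and antisense transcripts cannot be separated either, because the library kit does not mark strand.

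Gamma was by far the most abundant cluster in these cells. Of all member counts, 2.75% fell on alpha and beta together. The gamma sum over 21 genes lay between 9.998 and 26.7 FPKM per library, while the alpha sum never passed 0.484 FPKM and the beta sum never passed 0.369 FPKM. Of the 21 gamma genes, 20 were counted in all 12 libraries and 10 reached 1 FPKM in at least 1 of them. None of the 35 alpha and beta rows reached 1 FPKM, and the highest value among them was 0.232 FPKM. In these bulk samples fewer expressing cells and less RNA per cell cannot be told apart, and this holds for every level given here.

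**Figure D1:**
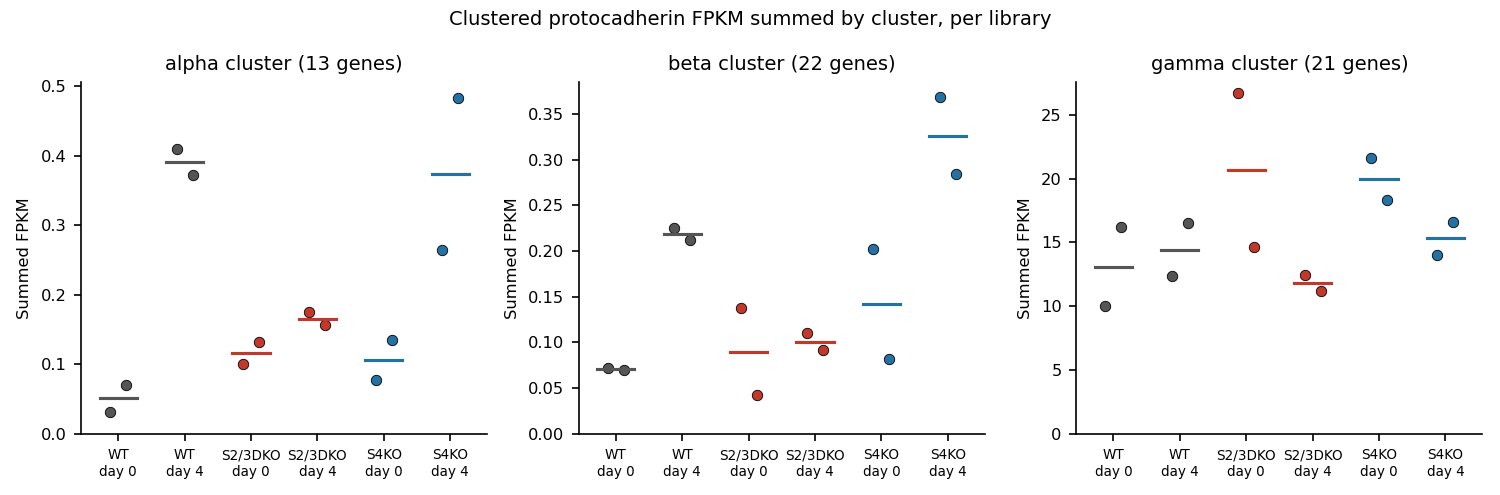
FPKM summed over the alpha (13 genes), beta (22) and gamma (21) clusters, with 1 point per library, a line at the group mean, and an axis of its own for each cluster. Gamma sums (9.998 to 26.7) stand far above alpha and beta sums (at most 0.484). WT gamma sums overlap between day 0 and day 4 through the Pcdhgc4 value of WT day 0 replicate 2.

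The gamma sum did not separate the days in WT. It was 9.998 and 16.2 FPKM in WT day 0 and 12.3 and 16.6 FPKM in WT day 4, ranges that overlap. The overlap rests on Pcdhgc4, which gave 6.32 FPKM in WT day 0 replicate 2 and 0.00428 FPKM in replicate 1. Without this gene both WT day 4 sums would lie above both day 0 sums, and the WT ratio below includes it. In S2/3DKO it was 26.7 and 14.6 FPKM at day 0 and 12.4 and 11.2 FPKM at day 4. In S4KO it was 21.6 and 18.3 FPKM at day 0 and 14.02 and 16.6 FPKM at day 4. In both knockouts both day 4 libraries lay below both day 0 libraries, with day 4 to day 0 ratios of the means of 0.571 and 0.768, against 1.10 in WT. These sums are descriptions, since members share exons and are not replicates.

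Low counts left 31 of the 57 IDs out of the test. The 26 tested were all 21 gamma genes, the alpha IDs Pcdha1, ENSMUSG00000007440, Pcdha12 and Pcdhac2, and the beta gene Pcdhb22. Members that passed this filter because 1 group was high had to differ between groups, so the counts below describe the tested members and not the whole family. A member was called at a Benjamini-Hochberg adjusted p below 0.05 in edgeR's quasi-likelihood test over 18693 genes, with 1 fit for all 12 libraries, and fold changes are given on the log2 scale with their standard errors.

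Pcdhgc3, a C-type gene at positions 37806364 to 37841873, was the most abundant member, and its level set the groups apart most clearly. Its FPKM was 1.504 and 1.18 in WT day 0 and 6.76 and 6.85 in WT day 4. In S2/3DKO it was 7.64 and 6.65 at day 0 and 3.83 and 3.65 at day 4. In S4KO it was 3.24 and 2.29 at day 0 and 4.39 and 7.81 at day 4. WT rose from the lowest level of any group to one of the highest, S2/3DKO began high and stood lower at day 4, and the days did not overlap within any genotype.

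In CPM, the group means of Pcdhgc3 ran from WT day 0 (6.28 ± 1.14, SD, n = 2) through S4KO day 0 (12.7 ± 3.10), S2/3DKO day 4 (16.5 ± 0.605), S4KO day 4 (28.2 ± 10.9) and WT day 4 (31.6 ± 0.219) to S2/3DKO day 0 (32.5 ± 3.58). The highest 3 of these groups overlap one another. WT day 0 lies below every library of the other groups.

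The change of Pcdhgc3 from day 0 to day 4 differed between WT and S2/3DKO. In WT it rose by a log2 fold change of 2.10 ± 0.32 (adjusted p = 0.000741, edgeR). In S2/3DKO the log2 fold change was -1.06 ± 0.31 (adjusted p = 0.0639), which did not pass. The test of the difference between these changes gave a log2 value of -3.16 ± 0.45 (adjusted p = 0.0104), and Pcdhgc3 was the only called member among the 26, with 6.10% of all tested genes called in that comparison and 4.26% called lower. The adjusted p was 0.0524 without S2/3DKO day 4 replicate 1 and 0.0674 without replicate 2, so the call needs both libraries, while the log2 value was -3.22 and -3.16 without them. In S4KO the log2 fold change was 1.09 ± 0.31 (adjusted p = 0.0538), and its difference from the WT change was -1.01 ± 0.44 (adjusted p = 0.215).

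**Figure D2:**
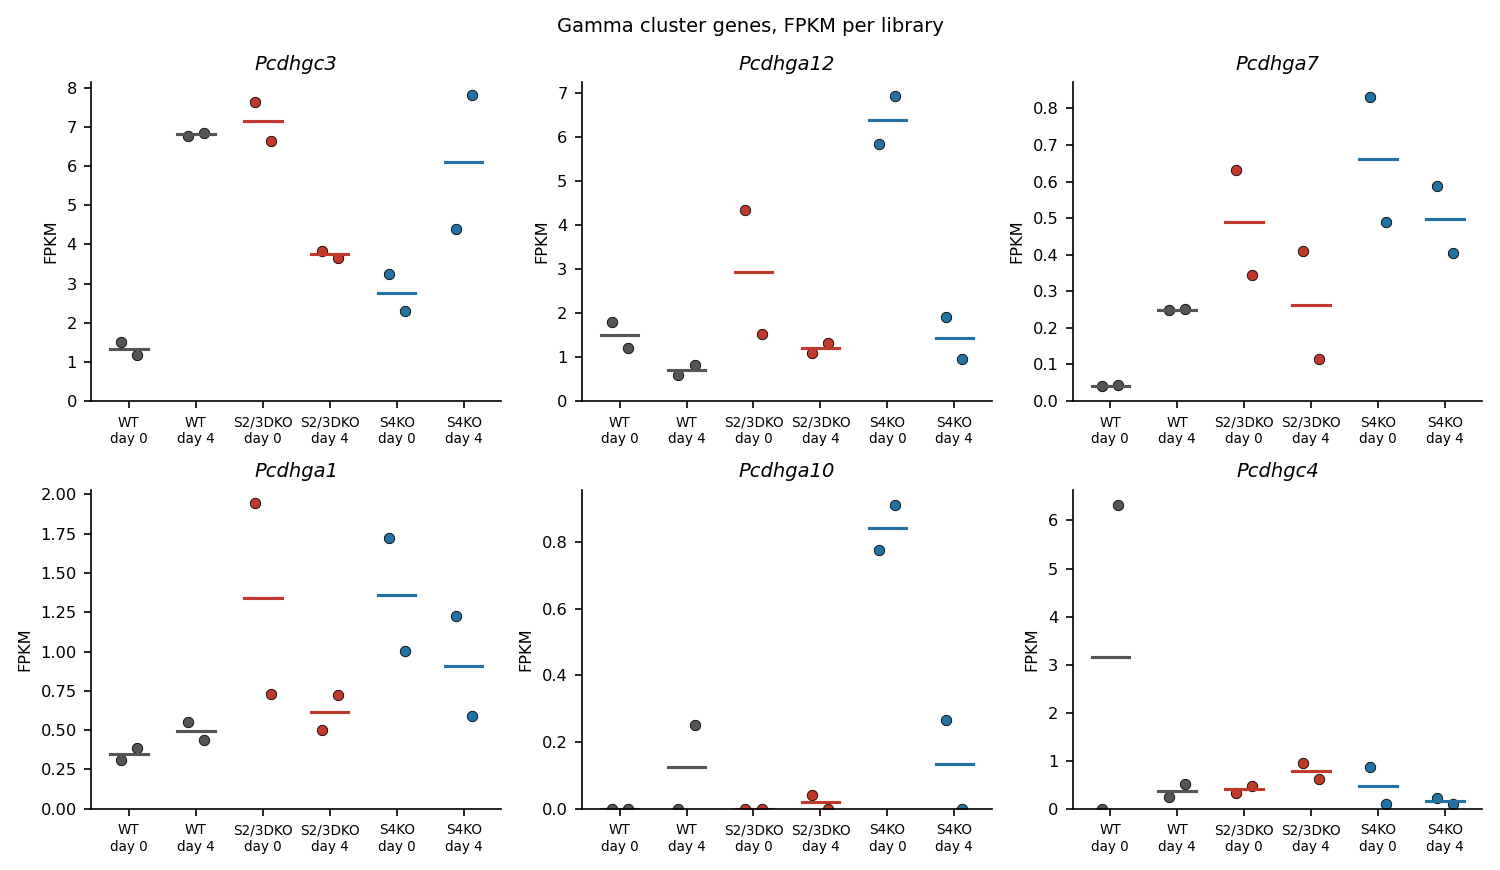
FPKM of 6 gamma genes in the 12 libraries, with 1 point per library and a line at the group mean. Pcdhgc3 climbs from 1.18 to 1.504 in WT day 0 to 6.76 to 6.85 in WT day 4, Pcdhga12 is highest in S4KO day 0 (5.84 and 6.93), and Pcdhgc4 stands at 6.32 in 1 WT day 0 library and at no more than 0.953 in the other 11.

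Pcdhgc3 also differed between genotypes at day 0. In S2/3DKO it was higher than in WT by 2.12 ± 0.32 (adjusted p = 0.00202), and S4KO lay below S2/3DKO by a log2 value of -1.30 ± 0.32 (adjusted p = 0.0379). The first of these calls held whichever of the 4 libraries was left out, at adjusted p up to 0.0273. The second was lost whichever of its 4 libraries was left out, at adjusted p from 0.0644 to 0.180. At day 4, S2/3DKO lay below WT at -1.04 ± 0.31 (adjusted p = 0.0452), a call also lost whichever of the 4 libraries was left out, at adjusted p from 0.0670 to 0.216.

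The make-up of the gamma cluster in WT shifted towards Pcdhgc3 from day 0 to day 4. Pcdhgc3 held 15.04% and 7.29% of the gamma FPKM in WT day 0 and 54.8% and 41.4% in WT day 4. The 7.29% is from WT day 0 replicate 2, where Pcdhgc4 held 39.1% and so lowered the share of Pcdhgc3. Pcdhgc3 shares in the other groups follow. It held 28.6% and 45.4% in S2/3DKO day 0 and 30.9% and 32.7% in S2/3DKO day 4. In S4KO it held 15.03% and 12.5% at day 0 and 31.3% and 47.0% at day 4. Its share therefore lay higher at day 4 in both WT and S4KO libraries, and overlapped between the days in S2/3DKO. It was the leading gamma gene in all 6 day 4 libraries and both S2/3DKO day 0 libraries, and in none of the other 4, as the heat map of the gamma genes shows.

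The 18 gamma genes that are not C-type, summed, did not show the Pcdhgc3 pattern. Their sum was 8.44 and 8.09 FPKM in WT day 0 and 4.82 and 8.62 FPKM in WT day 4, which overlap. In S4KO it was 17.1 and 15.7 FPKM at day 0 and 9.01 and 7.96 FPKM at day 4, which do not. In S2/3DKO it was 18.2 and 6.54 FPKM at day 0 and 6.38 and 5.90 FPKM at day 4, with replicate 1 of day 0 apart from the other 3 libraries.

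**Figure D3:**
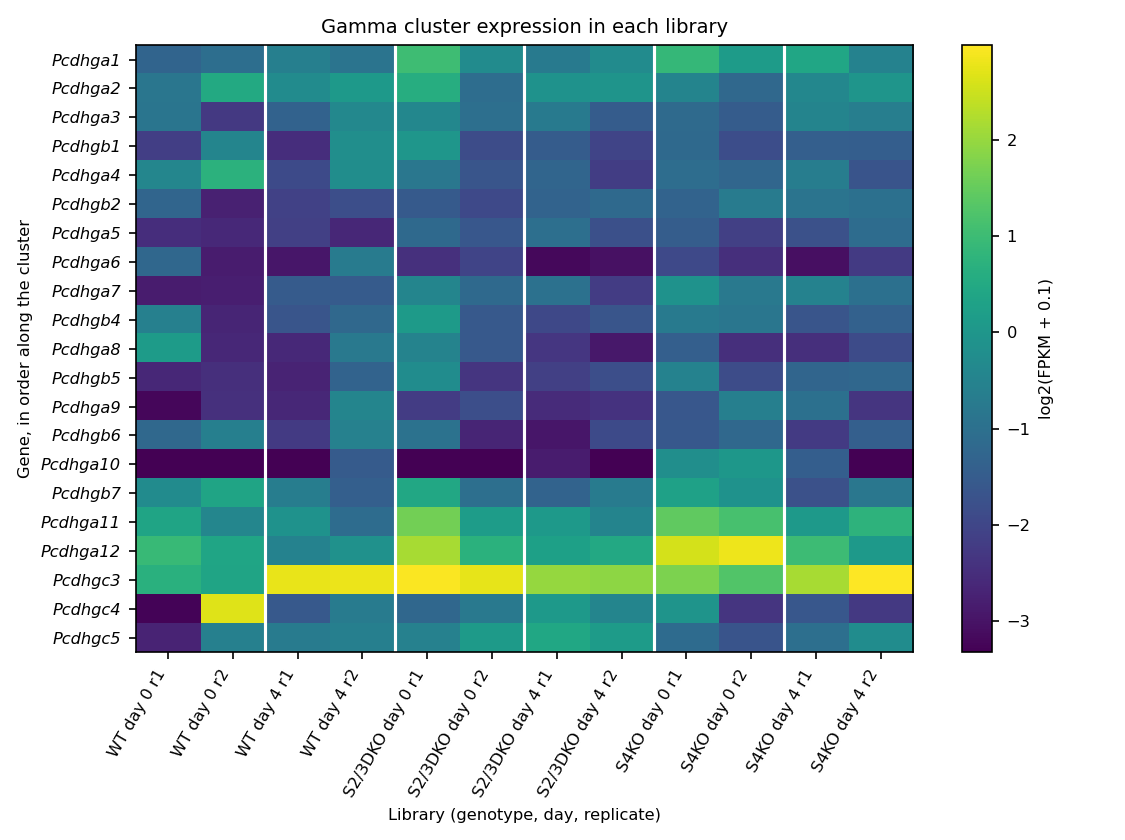
Level of the 21 gamma genes, as log2(FPKM + 0.1), in the 12 libraries, with genes in their order along the cluster and white lines between groups. Pcdhgc3 is the brightest row in all day 4 columns and Pcdhga12 in the S4KO day 0 columns, while neighbouring columns of 1 group differ in many of the other rows.

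Pcdhga12, the last alternate gene before the C-type genes, was the second most abundant member. Its FPKM was 1.79 and 1.22 in WT day 0 and 0.597 and 0.808 in WT day 4. In S2/3DKO it was 4.33 and 1.52 at day 0 and 1.09 and 1.31 at day 4, and in S4KO 5.84 and 6.93 at day 0 and 1.91 and 0.946 at day 4. Both S4KO day 0 libraries lay above all 10 other libraries, and day 4 lay below day 0 in every genotype. It fell from day 0 to day 4 in WT (log2 fold change -1.32 ± 0.49, adjusted p = 0.0472) and in S4KO (-2.21 ± 0.50, adjusted p = 0.0202), and in S2/3DKO the value was -1.38 ± 0.49 (adjusted p = 0.108). At day 0 S4KO was higher than WT by 1.90 ± 0.49 (adjusted p = 0.0233). Neither knockout's day 4 change differed from that of WT by the test of the difference (adjusted p = 0.980 for S2/3DKO and 0.475 for S4KO). The WT fall was lost whichever of the 4 libraries was left out (adjusted p from 0.0584 to 0.255), as was the day 0 difference (0.0512 to 0.142), and the S4KO fall was lost without day 0 replicate 2 or day 4 replicate 2 (adjusted p up to 0.184).

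Pcdhga7 and Pcdhga1, alternate genes nearer the start of the cluster, were higher in both knockouts than in WT at day 0. Pcdhga7 was counted 7 and 7 times in WT day 0, 115 and 66 times in S2/3DKO day 0 and 185 and 87 times in S4KO day 0, without overlap. Its log2 difference from WT was 3.48 ± 0.80 in S2/3DKO (adjusted p = 0.00882) and 4.10 ± 0.80 in S4KO (adjusted p = 0.0100), and it rose in WT from day 0 to day 4 by 2.55 ± 0.79 (adjusted p = 0.0231), where the counts were 41 and 59. Pcdhga1 was counted 51 and 65 times in WT day 0, 337 and 125 times in S2/3DKO day 0 and 280 and 165 times in S4KO day 0. Its differences from WT were 1.80 ± 0.55 (adjusted p = 0.0303) and 1.78 ± 0.55 (adjusted p = 0.0441). These knockout comparisons share the WT day 0 libraries. Leaving out either WT day 0 library ended each of these 5 calls, and WT day 4 replicate 2, S2/3DKO day 0 replicate 1 (Pcdhga1) and S4KO day 0 replicate 1 each ended the calls they enter. The adjusted p then reached 0.110 for Pcdhga7 in WT, 0.0782 and 0.118 for Pcdhga7 in S2/3DKO and S4KO, and 0.231 and 0.261 for Pcdhga1.

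Pcdhga10, another alternate gene, was at 0 in both WT day 0 and both S2/3DKO day 0 libraries and was counted 184 and 219 times in S4KO day 0. Against a floor of 3 counts over the WT day 0 group, S4KO day 0 was at least 136-fold higher (adjusted p = 0.0427). The call was lost whichever of the 4 libraries was left out (adjusted p from 0.0595 to 0.212). At day 4 it was counted in 1 library of each genotype, 62 times in WT, 11 in S2/3DKO and 65 in S4KO, and was at 0 in the other 3.

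Pcdhgc4 and Pcdhgc5, the C-type genes beyond Pcdhgc3, passed in no contrast. Pcdhgc4 was counted 1 time in WT day 0 replicate 1 and 985 times in replicate 2, where it made up 39.1% of the gamma FPKM. In the other 10 libraries it was counted 18 to 180 times. Pcdhgc5 ran from 0.0538 FPKM in WT day 0 replicate 1 to 1.26 FPKM in S2/3DKO day 4 replicate 1, with a WT day 4 against day 0 value of 0.58 ± 0.71 (adjusted p = 0.527). Pcdhga11, among the 4 most abundant gamma genes, ran from 0.372 to 3.00 FPKM and passed in no contrast either, its lowest adjusted p being 0.142.

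Replicates of 1 group differed more in the gamma genes than in other genes within their range of levels, which were not matched in level gene by gene. The median biological coefficient of variation was 0.508 over the 21 gamma genes and 0.302 over 7199 genes in the same range of levels. The median absolute log2 ratio between replicates was 0.832 and 0.378 in these sets. This coefficient was smallest in Pcdhgc3 (0.237) and largest in Pcdhga10 (1.33). In the alternate gene Pcdhga8, for example, WT day 0 replicates held 241 and 16 counts and S2/3DKO day 0 replicates 149 and 53.

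Counted by contrast, WT day 4 against day 0 called 5 of 26 members, beside 43.6% of all tested genes. Of these, 4 were higher (ENSMUSG00000007440, Pcdha12, Pcdhga7, Pcdhgc3) beside 23.8% of all genes, and 1 was lower (Pcdhga12) beside 19.9%. The alpha IDs ENSMUSG00000007440 and Pcdha12 entered the test only through day 4 libraries, so their difference from day 0 was fixed by the filter. Among the gamma genes alone 3 of 21 were called, 2 higher and 1 lower. S4KO day 4 against day 0 called 1 of 26 (Pcdhga12), beside 8.90% of all genes, and it was lower, as were 3.81% of all genes, a share near that of the members. S2/3DKO day 4 against day 0 called 0 of 26 in edgeR's quasi-likelihood test beside 7.03% of all genes, with 4 members at an unadjusted p under 0.05 and 2 called by DESeq2. In all 3 genotypes the share of members called was smaller than that of all genes. Of the 21 gamma genes, 10 had a positive log2 fold change in WT, 4 in S2/3DKO and 7 in S4KO. Their medians were -0.03, -1.10 and -0.54 beside 0.08, 0.02 and 0.02 over all tested genes. The S2/3DKO values rest in part on day 0 replicate 1. The 18 gamma genes that are not C-type summed to 18.2 FPKM in it and to 6.54 FPKM in replicate 2. At day 4 they summed to 6.38 and 5.90 FPKM. Members share exons, so their signs are not independent. The difference of the day 4 change between S4KO and WT called 0 members, beside 0.150% of all genes, with 4 at an unadjusted p under 0.05 and 0 called by DESeq2.

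**Figure D4:**
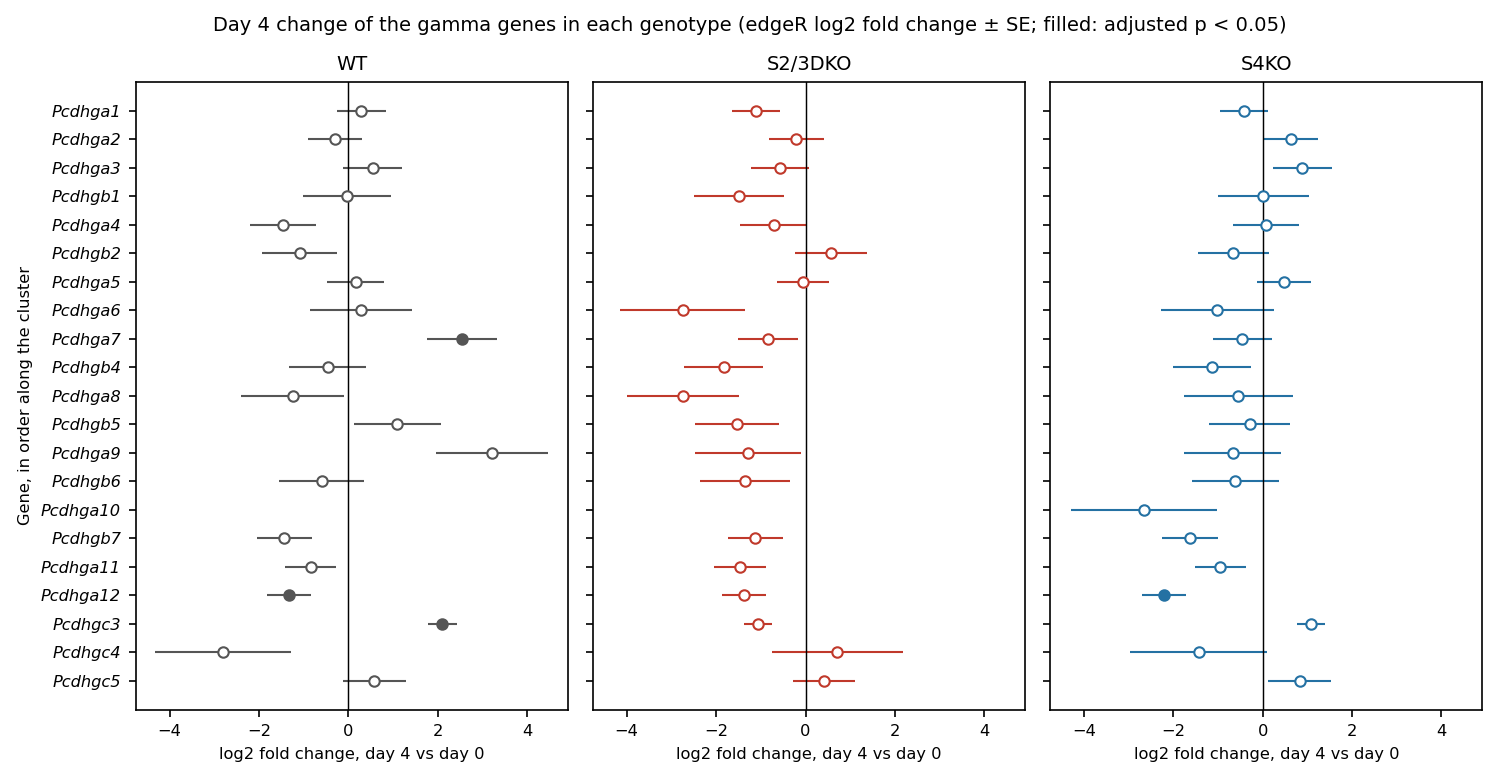
Log2 fold change from day 0 to day 4, with its standard error, for the gamma genes in WT, S2/3DKO and S4KO, in order along the cluster. Filled points passed the test (Pcdhga7, Pcdhga12 and Pcdhgc3 in WT, Pcdhga12 in S4KO). Pcdhga10 is left out of WT and S2/3DKO because its day 0 counts are 0. Of the 20 S2/3DKO values shown 17 are negative, resting in part on day 0 replicate 1, the library with the highest gamma sum.

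Between genotypes at day 0, S2/3DKO against WT called 4 members, all higher (Pcdhac2, Pcdhga1, Pcdhga7, Pcdhgc3), beside 31.0% of all tested genes called and 16.7% called higher. S4KO against WT called 4, all higher (Pcdhga1, Pcdhga7, Pcdhga10, Pcdhga12), beside 19.6% called and 10.5% called higher. S4KO against S2/3DKO called 1, lower in S4KO (Pcdhgc3), beside 5.53% called and 3.38% called lower. None of these 3 shares is larger than that of all genes called in either direction. Counted in the direction of the calls, 4 of 26 lies beside 16.7% in S2/3DKO and 10.5% in S4KO against WT. In S4KO against S2/3DKO, 1 of 26 lies beside 3.38%. With so few calls none of these is read as more than the background. The calls against WT depended on single libraries in both knockouts, other than that of Pcdhgc3 in S2/3DKO, as given for each gene. The call of Pcdhgc3 in S4KO against S2/3DKO did so too. At day 4, S2/3DKO against WT called 1, lower (Pcdhgc3), beside 15.2% of all genes called and 8.0% called lower. S4KO against WT called 0 beside 1.73%, with 3 members at an unadjusted p under 0.05 and 0 called by DESeq2. S4KO against S2/3DKO called 0 beside 12.3%, with 2 at an unadjusted p under 0.05 and 0 called by DESeq2.

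The alpha cluster was nearly silent, and its C-type gene Pcdhac2 was its 1 ID counted in all 12 libraries. Pcdhac2 was counted 10 and 7 times in WT day 0, 31 and 19 at WT day 4, 30 and 37 in S2/3DKO day 0, 48 and 39 in S2/3DKO day 4, 19 and 27 in S4KO day 0, and 71 and 38 in S4KO day 4. WT day 0 held the fewest counts and no library of another group reached down to it. S2/3DKO day 0 was higher than WT day 0 by a log2 value of 1.78 ± 0.54 (adjusted p = 0.0292), which was lost without S2/3DKO day 0 replicate 2 and without each of the WT day 0 libraries (adjusted p up to 0.172). Pcdhac1, the other alpha C-type gene, was counted 4 times, all in S4KO day 4 replicate 2.

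The 12 alternate alpha IDs appeared mainly in both WT day 4 libraries and in S4KO day 4 replicate 2. Their summed counts were 0 and 15 in WT day 0 and 95 and 90 in WT day 4. They were 1 and 0 in S2/3DKO day 0, 13 and 10 in S2/3DKO day 4, 5 and 12 in S4KO day 0, and 12 and 50 in S4KO day 4. Both WT day 4 libraries stood above all 10 others, but part of the gap in counts is library depth. In CPM their sums were 1.77 and 1.74, beside 1.58 in S4KO day 4 replicate 2, the library with the lowest total. The next highest sum was 0.292 CPM, in WT day 0 replicate 2. The members behind these sums differed between replicates: Pcdha6 gave 28 counts in WT day 4 replicate 1 and 6 in replicate 2, and Pcdha4 gave 2 and 18.

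Pcdha12 and ENSMUSG00000007440 were the alternate alpha IDs that passed. Both had entered the test only through day 4 libraries, Pcdha12 only through those of WT, so a difference from day 0 groups at 0 was fixed by the filter, and their adjusted p supports nothing beyond the counts. Pcdha12 was counted 31 and 45 times in WT day 4, 0 times in all 6 day 0 libraries, 0 and 4 times in S2/3DKO day 4 and 0 and 5 times in S4KO day 4. WT day 4 was at least 24.5-fold above a floor of 3 counts over the WT day 0 group (adjusted p = 0.0219). ENSMUSG00000007440 was counted 16 and 7 times in WT day 4 and 0 times in all day 0 libraries, at least 7.32-fold above the same floor (adjusted p = 0.0243). Without 1 library the adjusted p of Pcdha12 lay between 0.0616 and 0.102 and that of the other ID between 0.0377 and 0.115. Pcdha12 in S2/3DKO day 4 against WT day 4 gave an adjusted p of 0.1004, and Pcdha1, with 12 and 21 counts in 1 library each of S4KO day 0 and day 4, passed in no contrast.

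**Figure D5:**
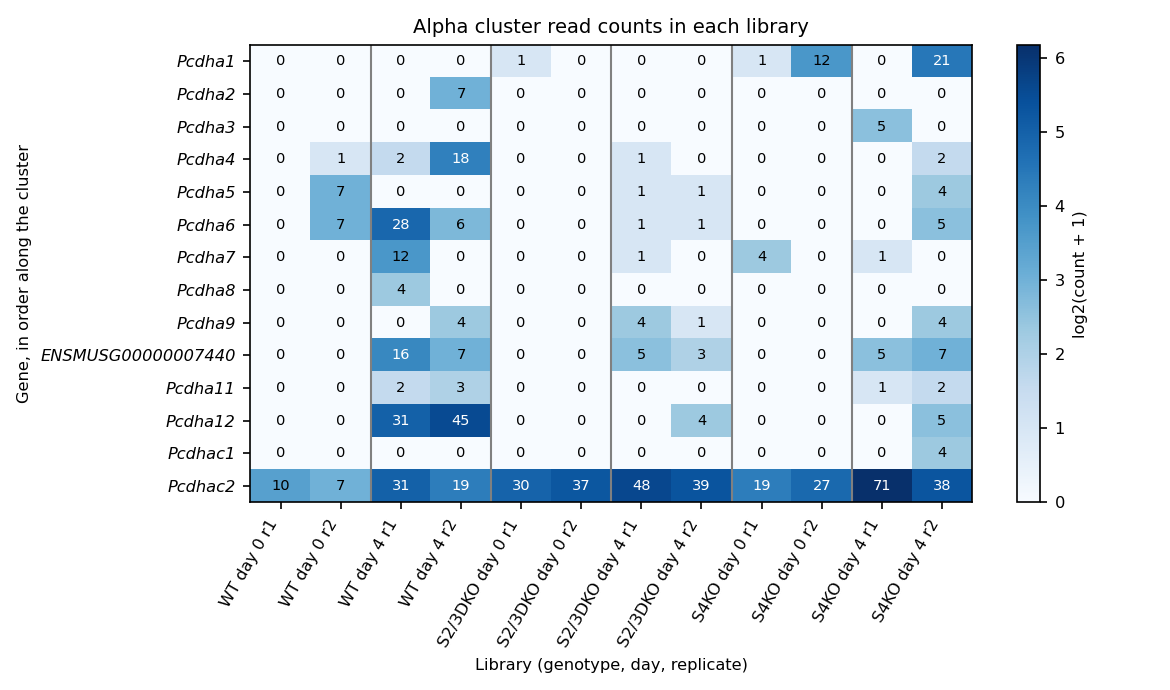
Read counts of the 14 alpha gene IDs in the 12 libraries, in order along the cluster, with the count printed in each cell and the shade on a log2(count + 1) scale. Pcdhac2 is counted in every library, Pcdha12 at 31 and 45 counts in WT day 4, and most other cells hold 0.

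The beta cluster gave 527 counts in all libraries together, of which Pcdhb22, its last gene, held 134. Pcdhb22 was counted 6 and 5 times in WT day 0, 11 and 11 at WT day 4, 16 and 2 in S2/3DKO day 0, 6 and 8 in S2/3DKO day 4, 20 and 5 in S4KO day 0, and 33 and 11 in S4KO day 4. It passed in no contrast. The other beta genes with the highest mean FPKM were Pcdhb17 (55 counts in all), Pcdhb3 (28) and Pcdhb2 (23). The beta sum was 0.0707 ± 0.00137 FPKM in WT day 0 and 0.219 ± 0.0089 FPKM in WT day 4 (SD, n = 2), without overlap. In S2/3DKO it was 0.0897 ± 0.0671 FPKM at day 0 and 0.101 ± 0.0136 FPKM at day 4, which overlap, and in S4KO 0.142 ± 0.0855 and 0.326 ± 0.0599 FPKM, which do not.

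Boundary and cohesin genes are known to build the loops that choose protocadherin promoters. Of 11, 9 were higher at WT day 4 than at day 0 beside 23.8% of all tested genes, and none was lower, with a median of 1.16 beside 0.08 over all tested genes. Ctcf, the insulator protein, rose from 109 to 230 CPM (0.86 ± 0.21, adjusted p = 0.00800), and Stag2, a cohesin subunit, from 65.6 to 325 CPM (2.09 ± 0.32, adjusted p = 0.000762). With each library's trend in gene length and GC content removed 4 of 11 passed, and without WT day 0 replicate 1 or WT day 4 replicate 1 the count was 5 and 4. At day 0, 6 of 11 were higher in S2/3DKO than in WT beside 16.7% of all genes, and 9 of 11 in S4KO beside 10.5%. Both day 0 counts were 0 without WT day 0 replicate 1, that of S4KO was also 0 without S4KO day 0 replicate 1, and with the length and GC trend removed they were 1 higher and 1 lower in S2/3DKO and 3 higher in S4KO.

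The 11 genes of silencing and DNA methylation, a list that holds the Tet enzymes as well as the methyltransferases, moved in both directions. In WT from day 0 to day 4, 5 of 11 were higher beside 23.8% of all genes and 3 lower beside 19.9%, with a median of 0.02. These 8 were 4 without WT day 0 replicate 1 and 5 without WT day 0 replicate 2 or WT day 4 replicate 1. Smchd1, a chromatin protein known to repress clustered protocadherins, rose from 51.6 to 254 CPM (2.08 ± 0.28, adjusted p = 0.000384), and Dnmt3b, a de novo DNA methyltransferase that marks their promoters, from 212 to 1494 CPM (2.60 ± 0.50, adjusted p = 0.00217). Dnmt3l, a cofactor of that family, fell by 2.30 on the log2 scale (adjusted p = 0.000416). At day 4, Dnmt3b stood at 240 CPM in S2/3DKO, below WT at -2.74 ± 0.50 (adjusted p = 0.00483). The day 4 change of Smchd1, Dnmt3a and Dnmt3b was lower in S2/3DKO than in WT by the test of the difference, and 0 to 4 of 11 genes passed that test when any 1 of 8 libraries was left out.

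The non-clustered protocadherins are single genes outside the 3 clusters. From day 0 to day 4 in WT, 7 of 12 were higher beside 23.8% of all genes and none was lower, with a median of 3.66. Pcdh1 rose from 3.76 to 105 CPM (4.58 ± 0.61, adjusted p = 0.000375), and Pcdh7 from 0 counts to 16.7 CPM, at least 565-fold above the floor. In S2/3DKO 3 of 12 and in S4KO 4 of 12 were higher at day 4, among them Pcdh1 in both, where 7.03% and 8.90% of all genes were called in either direction. In S2/3DKO that count was 0 whichever of its 4 libraries was left out, and in S4KO it ran from 1 to 5. Pcdh12 stood at 7.43 CPM in S2/3DKO day 0 and 0.0195 CPM in WT day 0 (8.16 ± 0.91, adjusted p = 0.000740).

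Partners of the cytoplasmic part, which link protocadherins to the WAVE actin complex and to focal adhesion kinases or cut the proteins at the membrane, rose in WT in 8 of 14 genes beside 23.8% of all genes and fell in 1 beside 19.9%, with a median of 0.66. Cyfip2, which binds the cytoplasmic tail as part of the WAVE complex, rose from 28.8 to 97.2 CPM (1.53 ± 0.21, adjusted p = 0.000435), and Brk1, another subunit, fell by 1.44 on the log2 scale (adjusted p = 0.000774). Without 1 library, 5 (without WT day 0 replicate 1) to 10 of the 14 passed. Of 14 neighbours between and beside the clusters, 1 was higher at WT day 4 (Arap3, 1.72 ± 0.38, adjusted p = 0.00440) beside 23.8% of all genes. Another 2 were lower (Zmat2 and Ndufa2) beside 19.9%, and the median of the 14 was -0.39.

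Neural markers moved beside these changes. The summed level of 10 neural progenitor markers was 35.5 to 43.7 CPM in WT day 0 and 179 to 233 CPM in WT day 4, 20.9 to 30.7 and 37.4 to 48.9 CPM in S2/3DKO, and 35.7 to 41.0 and 81.6 to 224 CPM in S4KO. Of the 10, 6 were higher and 1 lower at WT day 4 beside 23.8% and 19.9% of all genes, and 2 were at 0 in WT day 0 (Pou3f2 and Six3). The sum of 10 neuron markers, in WT day 0 mostly Stmn2, was 561 to 563 CPM in WT day 0 and 106 to 107 CPM in WT day 4. From day 0 to day 4 it went from 261 to 358 CPM to 56.8 to 73.2 CPM in S2/3DKO. In S4KO it went from 552 to 578 CPM to 156 to 184 CPM. Of the 10, 1 was higher at WT day 4 beside 23.8% of all genes and 4 were lower beside 19.9%. The 7 progenitor calls were 3 without WT day 0 replicate 1 and 4 without WT day 0 replicate 2 or WT day 4 replicate 2, and the 5 neuron calls were 2 without WT day 0 replicate 1 and 3 without WT day 4 replicate 1. The sum of 10 extraembryonic endoderm markers was 5.04 to 6.64 CPM in WT day 0 and 750 to 813 CPM in WT day 4. At day 4 it was 132 to 199 CPM in S2/3DKO and 37.3 to 69.2 CPM in S4KO. That of 10 trophectoderm markers was 707 to 1164 CPM in S2/3DKO day 0 beside 200 to 205 CPM in WT day 0. At day 4 the trophectoderm sum was 2627 to 3165 CPM in S2/3DKO, 504 to 698 CPM in WT and 179 to 378 CPM in S4KO. The part of these cell types in the protocadherin values was not tested.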

How the data were processed

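Libraries were made with a kit that does not mark strand, per the labels' protocols, and samples were grouped by the genotype and day in their titles. The authors deposited raw counts per Ensembl gene ID and FPKM per gene symbol, 1 column per library. The submitters' processing notes list build mm10 and, with no versions, Cufflinks, StringTie and DESeq2. For the aligner, annotation and counting rule the entry is "not given in the sources used here". GENCODE M21 gave 32158 of 32285 count IDs a symbol.

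Counts were fitted with edgeR 4.0.16 (R 4.3.3): TMM, filterByExpr (18693 genes), 1 coefficient for each of 6 groups, quasi-likelihood test, Benjamini-Hochberg adjustment, calls below 0.05. Standard errors are the fold change divided by the square root of F. CPM are counts over library totals. Replicates correlated at 0.966 to 0.988 and no pair matched within sampling noise (31.2 to 248 chi-square units per gene).

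The members, lists and tests were chosen with earlier results of these data known. The rule named the 4 most abundant members of each cluster, the C-type genes and called members with the largest changes. Pcdhga8, Pcdha4, Pcdha1 in single libraries and Pcdh12 were chosen after their values were seen. Alternatives were RLE size factors, 2 other filters, DESeq2 1.42.0, limma 3.58.1 on log2(FPKM + 1) and log2(FPKM + 0.1), a length and GC correction, a replicate block and leaving out each library. For the gene lists, the correction and the left-out libraries were added after seeing the data. Where leaving out a library left 1 in a group, that library's spread was taken from the other groups. The fit was checked on simulated data. A planned search of member promoters for a motif was not run. Python 3.11.15, pandas 2.3.3, numpy 2.4.6 and matplotlib 3.10.9 handled tables and figures.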

Additional observations from a re-analysis of the deposited data

Results flagged for a closer look

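Among the clustered protocadherins, Pcdhgc3 changed differently from day 0 to day 4 in S2/3DKO than in WT, by a log2 value of -3.16 in the test of the difference itself. The same test (edgeR's quasi-likelihood test, Benjamini-Hochberg adjustment) passed for 8 genes in 4 of the 5 gene lists set beside them. Of all tested genes 6.10% passed it and 4.26% passed as lower in S2/3DKO. Among the 11 boundary and cohesin genes these were Stag1 (-1.22) and Nipbl (-1.69). Among the 11 silencing and methylation genes they were Smchd1 (-1.66), Dnmt3a (-1.16) and Dnmt3b (-2.73). The others were Pcdh8 (-4.39) and Pcdh19 (-2.58) of 12 non-clustered protocadherins, and the actin regulator Cyfip2 (-1.59) of 14 partners of the cytoplasmic part. In these 9 genes the change was lower in S2/3DKO. Each cell type list holds 10 markers, of which 9 were tested for mesoderm and for fibroblast. Of these markers the test also passed, lower in S2/3DKO, for 6 of extraembryonic endoderm and 3 of mesoderm. It passed as lower for 1 each of the fibroblast, pluripotent and trophectoderm lists, and as higher for 1 each of the neuron and trophectoderm lists.

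The number of calls in the gene lists changed with single libraries. With any 1 of 8 libraries left out, the boundary and cohesin count of 2 was 0, or 7 without WT day 4 replicate 2, and with the length and GC correction it was 0. The silencing and methylation count of 3 ran from 0 to 4 and was 1 with the correction. The count of 2 non-clustered protocadherins ran from 0 to 2 and was 1, and that of 1 partner of the cytoplasmic part ran from 0 to 7 and was 1. For Pcdhgc3 the adjusted p was 0.0524 without S2/3DKO day 4 replicate 1 and 0.0674 without replicate 2.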

How the results depend on the processing

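Of the 259 refits of single members, 183 kept their side of the threshold, 68 lost the call, 8 gained one and 0 reversed. Of the 160 recomputed counts of called members and ratios of cluster sums, 108 stayed within the limits set and 52 moved. Every recomputed call of Pcdhgc3 in WT day 4 against day 0 (13) and in S2/3DKO against WT at day 0 (13) passed.

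Counts of called members moved as follows, beside the values in the report. With no filter on low counts they were 8 in WT day 4 against day 0, 2 in S2/3DKO, 3 in S4KO, 8 in S2/3DKO against WT at day 0, 7 in S4KO against WT at day 0, 3 in S2/3DKO against WT at day 4, 2 in S4KO against S2/3DKO at day 0, and 3 and 1 for the differences of the day 4 change of S2/3DKO and S4KO from WT. DESeq2 called 2 in S2/3DKO and 2 in S4KO from day 0 to day 4, 7 and 2 in S2/3DKO against WT at day 0 and day 4, and 3 for the S2/3DKO difference. Limma on log2(FPKM + 1) called 1 with a filter and 3 without in WT from day 0 to day 4, 2 and 3 in S4KO, 2 with a filter in S4KO against S2/3DKO at day 0, 0 with a filter in S2/3DKO against WT at day 4, and, without one, 2 in S4KO against WT at day 4 and 2 for the S2/3DKO difference. On log2(FPKM + 0.1) it called 2 in WT, 2 in S4KO, 0 in S2/3DKO against WT at day 4 and 2 in S4KO against S2/3DKO at day 0. The length and GC correction gave 1 in S2/3DKO and 2 in S4KO from day 0 to day 4, the minimum of 1 CPM in 2 libraries gave 1 in S2/3DKO, and RLE size factors gave 0 in S2/3DKO against WT at day 4. The WT ratio of beta sums was 3.09 in FPKM and 2.82 in CPM. The cause of these moves was not tested.

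With 1 library left out the counts ran from 2 to 4 in WT day 4 against day 0 (2 without WT day 0 replicate 1), 0 to 1 in S2/3DKO, 0 to 2 in S4KO, 2 to 4 in S2/3DKO against WT at day 0 (2 without WT day 0 replicate 1), 0 to 2 in S4KO against WT at day 0 (0 without S4KO day 0 replicate 1 and without each of the WT day 0 libraries), 0 to 1 in S2/3DKO against WT at day 4, 0 to 1 in S4KO against S2/3DKO at day 0, and 0 to 1 for the S2/3DKO difference. With the replicate block, S2/3DKO against WT at day 4 had 0 calls and the S2/3DKO difference 2. The labels do not say that numbers pair libraries, and deviations of same-numbered libraries correlated at -0.147 to 0.339 over 15 pairs of groups (median -0.0112).

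With 2 libraries a group and few counts on alpha and beta genes, a change of these genes was mostly not detectable at this depth.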
